A study of Rattus norvegicus with 6 samples.

Results

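The Toll-like receptor genes Tlr2, Tlr3, Tlr4, Tlr6 and Tlr7, the receptor partners Ly96 and Cd14, the adaptor Myd88, the kinase Irak2 and the inhibitor Irak3 were followed in arthritic rat synovial tissue. These 10 genes were taken by name from the array's own gene annotation, out of 16417 genes with a settled symbol, and all of them were found, on 11 of the array's 41012 probes. In the treated group, triptolide, a diterpenoid made by the vine Tripterygium wilfordii, had been given at 0.4 mg/kg every day for 14 days (triptolide, 3 arrays), and in the other group saline had been given instead (arthritis, 3 arrays). All animals were male rats of 8 weeks with adjuvant arthritis, raised by daily intraperitoneal injection of 0.1 ml of Freund's complete adjuvant over 18 days, and the tissue came from the ankles of the hind legs. Freund's complete adjuvant contains killed mycobacteria, whose products are themselves ligands of Toll-like receptors, and both groups had received it. The strain is not given in the sources used here, no healthy rats were analysed here, and nothing says whether the numbered replicates were separate animals. The p-values therefore reflect only how far these samples vary, part of which may be technical.

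Toll-like receptors sense microbial molecules and products of damaged tissue. Those on the cell surface (among them Tlr1, Tlr2, Tlr4 and Tlr6) bind lipids and proteins, and those in endosomes (among them Tlr3, Tlr7 and Tlr9) bind nucleic acids. Except for Tlr3, which uses another adaptor, they signal through Myd88, which gathers the IRAK kinases and leads to NF-kB and to cytokine genes. In synovium these receptors are known mainly from macrophages and from the fibroblasts of the lining.

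Each array carried 43379 spots that were not controls, of which 25850 to 28249 were well above background, and no spot was saturated. Log2 levels are relative to the array itself, so that 0 is the intensity below which 75% of its spots lie. A level belongs to 1 probe, and the levels of different genes are not set against each other. All 10 of the synovial fibroblast markers listed for checking the tissue were well above background on enough arrays to be tested, as were 11 of 12 macrophage markers. Triptolide 1 was on slide 1 with all 3 arthritis arrays, and triptolide 2 and 3 were on slide 2, per the file headers, so slide and group can be told apart only through triptolide 1.

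Of the 10 genes, 9 were bright enough to test, and 0 of them passed an adjusted p of 0.05 by limma with Benjamini-Hochberg adjustment over all 25777 tested probes, beside 0.0% of all tested probes. Among the 9, 1, the dim Irak3, had an unadjusted p under 0.05, and its groups did not overlap. Irak3 was well above background on 3 triptolide arrays and 1 arthritis array. It met the filter through the group where it was brighter, so its p and its lack of overlap are not independent of the filter. Over all tested probes, 3.24% had an unadjusted p under 0.05 and 8.64% had groups that did not overlap. The differences of the other 8 genes were between -0.04 and 0.41 on the log2 scale, triptolide minus arthritis, and their groups overlapped. These 8 were well above background on all 6 arrays, and 7 of them had a positive and 1 a negative difference, with a median of 0.12, beside 53.9% positive, 46.1% negative and a median of 0.023 over all tested probes.

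Among the surface receptors, the probe for Tlr2, which pairs with Tlr1 or Tlr6 to bind bacterial lipoproteins, stood at 5.65, 3.53 and 5.16 in triptolide 1 to 3, against 4.30, 4.01 and 4.80 in arthritis 1 to 3. Triptolide 1 and 3 lay above every arthritis array and triptolide 2 below all of them. The means were 4.78 ± 1.11 with triptolide and 4.37 ± 0.40 in arthritis (SD, n = 3 each), a log2 difference of 0.41 (SE 0.56, 95% interval -0.94 to 1.77, limma adjusted p = 0.994). That interval runs from 0.520-fold to 3.41-fold, so these arrays leave a wide range of sizes for Tlr2. Without triptolide 2 the difference was 1.04, and without triptolide 1 it was -0.023.

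Tlr6, the partner of Tlr2 for diacylated lipopeptides, stood at 3.05, 2.28 and 3.08 with triptolide, against 2.60, 2.00 and 2.82 in arthritis. The lowest value of each group was on the array numbered 2, and the ranges overlapped. The log2 difference was 0.33 (SE 0.31, 95% interval -0.43 to 1.09, limma adjusted p = 0.994). Tlr1, the other partner and not one of the 10 genes, stood at -0.24, -1.55 and -0.27 with triptolide, against -1.60, -1.82 and -0.66 in arthritis, with triptolide 1 and 3 again above all arthritis arrays and triptolide 2 among them. Its log2 difference was 0.68 (SE 0.46, limma adjusted p = 0.994).

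Tlr1, Tlr2 and Tlr6 are closely related genes, and their 3 probes can be aligned with each other. The probe sequences are shown because a shared stretch could let 1 transcript add to another's signal. Capitals mark the 8 bases that all 3 probes have in common, and each probe is 60 bases long, given 5′ to 3′ with its rn4 position. The annotated position of the Tlr2 probe spans slightly fewer bases than its 60.
Tlr2 probe (chr2:175608160-175608217, minus strand): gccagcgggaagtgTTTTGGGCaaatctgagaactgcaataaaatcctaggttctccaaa
Tlr6 probe (chr14:46100547-46100606, plus strand): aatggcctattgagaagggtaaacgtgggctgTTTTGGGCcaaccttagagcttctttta
Tlr1 probe (chr14:46124542-46124601, plus strand): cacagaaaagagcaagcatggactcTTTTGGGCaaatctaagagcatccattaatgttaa
The longest run without a mismatch was 14 bases between the Tlr1 and Tlr2 probes, 10 between Tlr2 and Tlr6 and 8 between Tlr1 and Tlr6. In gapless alignment the Tlr1 and Tlr6 probes matched at 37 of 53 aligned bases and those of Tlr1 and Tlr2 at 32 of 49. How much the probes cross-hybridise was not tested.

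Tlr4, the receptor for lipopolysaccharide, stood at 0.88, -0.10 and 0.65 with triptolide, against 0.36, 0.04 and 0.61 in arthritis. Triptolide 1 and 3 were the highest of the 6 arrays and triptolide 2 the lowest. The log2 difference was 0.14 (SE 0.30, 95% interval -0.59 to 0.86, limma adjusted p = 0.994). Ly96 encodes MD-2, the protein that holds lipopolysaccharide on Tlr4. Its probe stood at 0.50, -0.41 and 0.60 with triptolide, against 0.29, -0.43 and 0.53 in arthritis, where the arrays numbered 2 were the low ones in both groups. The groups differed by 0.11 (SE 0.37, 95% interval -0.79 to 1.00).

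Cd14, which passes lipopolysaccharide to Tlr4 and Ly96, was measured by 2 probes that do not overlap. Their sequences show that they read separate stretches of the transcript, starting at its positions 1050 and 270, per the array annotation.
Cd14 probe 1 (chr18:29374990-29375049, minus strand, rn4): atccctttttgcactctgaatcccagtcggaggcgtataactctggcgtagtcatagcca
Cd14 probe 2 (chr18:29375770-29375829, minus strand, rn4): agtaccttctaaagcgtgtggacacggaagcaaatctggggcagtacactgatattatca
Probe 1 stood at 6.45, 4.40 and 6.32 with triptolide, against 5.67, 5.45 and 6.17 in arthritis. Probe 2 stood at 2.64, 0.26 and 2.48 with triptolide, against 1.78, 1.60 and 2.16 in arthritis. On both probes triptolide 1 and 3 were the highest arrays and triptolide 2 was the lowest by a wide margin. The log2 differences were -0.039 (SE 0.57, 95% interval -1.42 to 1.35) and -0.054 (SE 0.64, 95% interval -1.60 to 1.49), so the group means nearly coincided while the triptolide arrays spread over 2.05 and 2.37 log2 units, against 0.73 and 0.55 for the arthritis arrays. Without triptolide 2 the differences were 0.62 and 0.71.

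**Figure D1:**
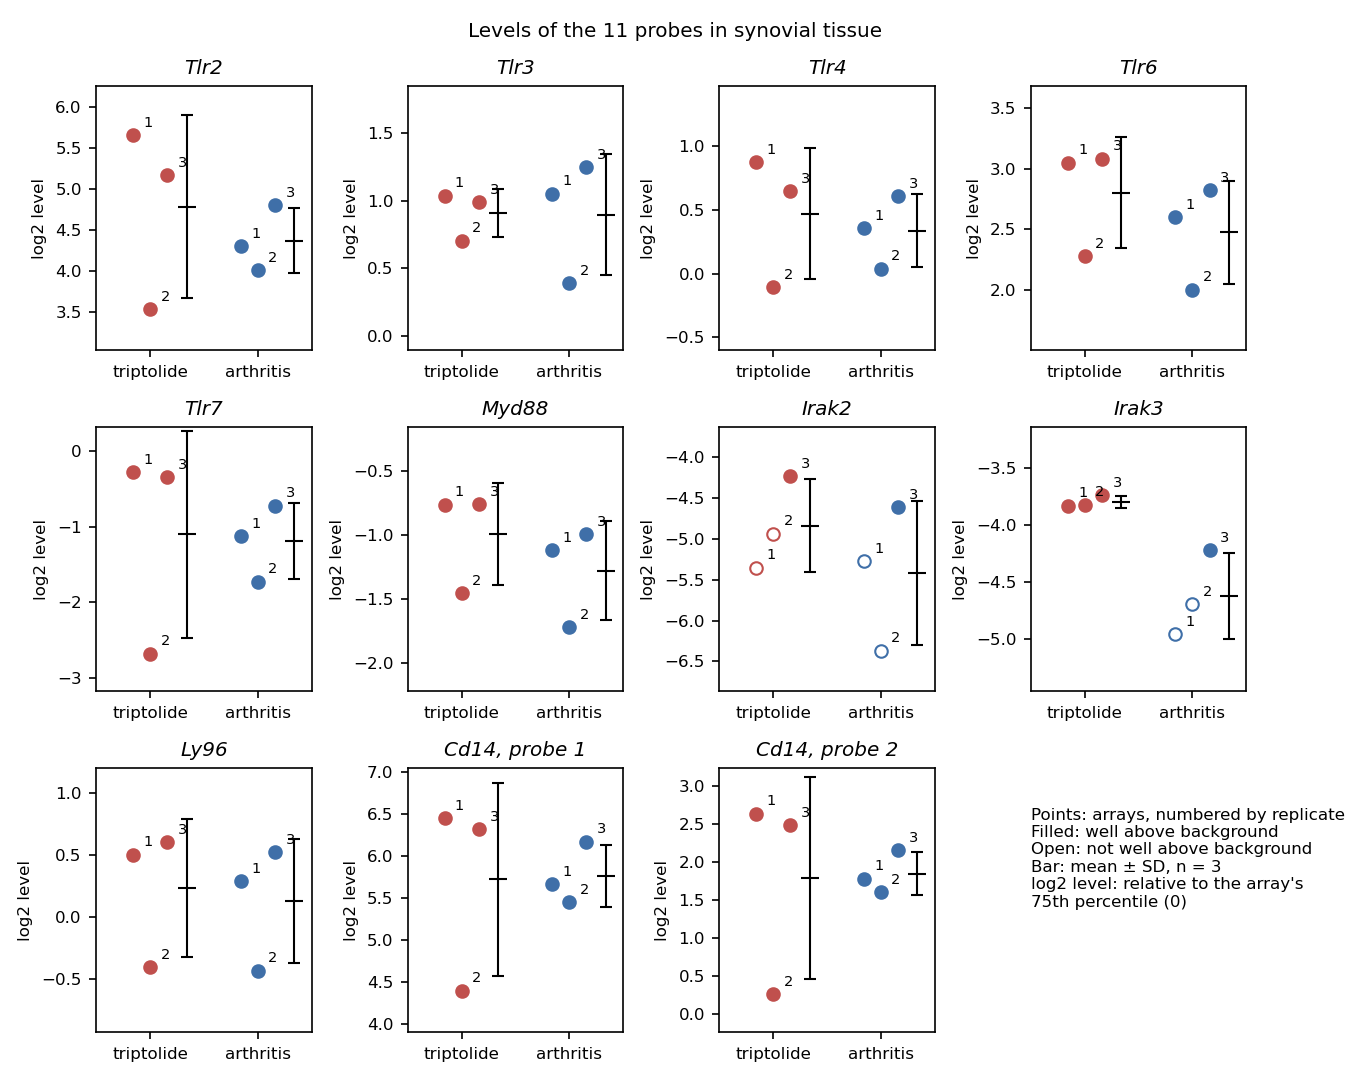
Log2 level (y axis, 0 is the array's 75th percentile) of each of the 11 probes on 3 triptolide arrays (red, left) and 3 arthritis arrays (blue, right), numbered by replicate, with open points where the probe was not well above background and bars for mean ± SD (n = 3). Irak3 is the gene whose groups do not overlap, at -3.83 to -3.74 with triptolide and -4.96 to -4.22 in arthritis, while triptolide 2 lies far below triptolide 1 and 3 for Tlr2, Tlr7 and Cd14.

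Of the endosomal receptors, Tlr3, which binds double-stranded RNA, stood at 1.04, 0.70 and 0.99 with triptolide, against 1.05, 0.39 and 1.25 in arthritis. The triptolide values all lay inside the range of the arthritis arrays. The log2 difference was 0.012 (SE 0.26), and its 95% interval of -0.61 to 0.64, or 0.654-fold to 1.55-fold, was the narrowest among the 5 receptors.

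Tlr7, the receptor for single-stranded RNA, stood at -0.28, -2.68 and -0.34 with triptolide, against -1.13, -1.73 and -0.72 in arthritis. Triptolide 1 and 3 lay above all arthritis arrays and triptolide 2 below all of them, as for Tlr2. The log2 difference was 0.091 (SE 0.69, 95% interval -1.57 to 1.75). Its SD within groups, 1.03, was larger than that of 95.5% of all tested probes, where the median was 0.283. Those of Cd14 (0.856 on probe 1) and Tlr2 (0.837) were above those of 93.1% and 92.7% of probes.

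In proximal signalling, Myd88, the adaptor, stood at -0.76, -1.45 and -0.76 with triptolide, against -1.12, -1.72 and -0.99 in arthritis. The array numbered 2 was lowest in each group, and triptolide 2 lay inside the arthritis range. The log2 difference was 0.28 (SE 0.29, 95% interval -0.41 to 0.98, limma adjusted p = 0.994). Irak2, a kinase that sustains signalling downstream of Myd88, was well above background on 1 array of each group, triptolide 3 and arthritis 3, and was not tested. Its probe read -5.35, -4.94 and -4.23 with triptolide, against -5.28, -6.37 and -4.62 in arthritis, and most of these values are at the level of background. The Irak2 probe spans chr4:149588306-149591904 on rn4, far more than its own length, so it crosses at least 1 intron of the gene.

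Irak3, known as IRAK-M, holds back the release of the IRAK kinases from the receptor complex and is a brake on the pathway. Its probe stood at -3.83, -3.82 and -3.74 with triptolide, against -4.96, -4.69 and -4.22 in arthritis. Every triptolide array lay above every arthritis array, and the triptolide values were within 0.092 of each other, against a range of 0.74 in arthritis. The means were -3.80 ± 0.05 with triptolide and -4.62 ± 0.38 in arthritis (SD, n = 3 each). The fitted log2 difference was 0.83 (SE 0.22, 95% interval 0.30 to 1.35), with a limma unadjusted p of 0.0081 and an adjusted p of 0.994, so Irak3 was not called. On 2 of the 3 arthritis arrays the probe was not well above background, so the size of the difference is not settled by this fit. The lowest adjusted p of any probe was 0.344.

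The Irak3 signal was dim. Background-subtracted intensities were 19.0, 24.2 and 33.6 on the triptolide arrays, against 9.05, 11.3 and 17.2 on the arthritis arrays, where the 75th percentile of an array was at 270.1 to 447.9. The probe was well above background on 3 of 3 triptolide arrays and on 1 of 3 arthritis arrays, arthritis 3, and the triptolide arrays alone met the filter of 3 arrays, so it reached the test through the group where it was brighter. With normexp background correction, which models the background and adds an offset of 50, the difference was 0.12 (SE 0.13, limma unadjusted p = 0.379). With normexp and quantile normalization it was 0.25 (SE 0.088, limma unadjusted p = 0.0287, adjusted p = 0.893). Within slide 1 it was 0.79 (unadjusted p = 0.0920), with triptolide 1 as the one treated array and assumed to vary like the arthritis arrays. The sequence is given because the observation rests on this 1 probe, which starts at position 1590 of its transcript, per the array annotation.
Irak3 probe (chr7:59409520-59409579, minus strand, rn4): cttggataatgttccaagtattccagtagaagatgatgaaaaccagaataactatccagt

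Within slide 1, where triptolide 1 alone stands against the 3 arthritis arrays, the log2 differences were 1.29 (SE 0.38) for Tlr2, 0.57 for Tlr6, 0.54 for Tlr4, 0.38 for Ly96, 0.69 and 0.79 for the Cd14 probes, 0.14 for Tlr3, 0.91 for Tlr7 and 0.51 for Myd88. Each was above its value over all 6 arrays and none passed the adjusted threshold by limma, with adjusted p of 0.920 for Tlr2. Triptolide 1 was the highest array of all for Tlr2, Tlr4, Tlr7 and Cd14, so these values rest on the level of 1 array.

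**Figure D2:**
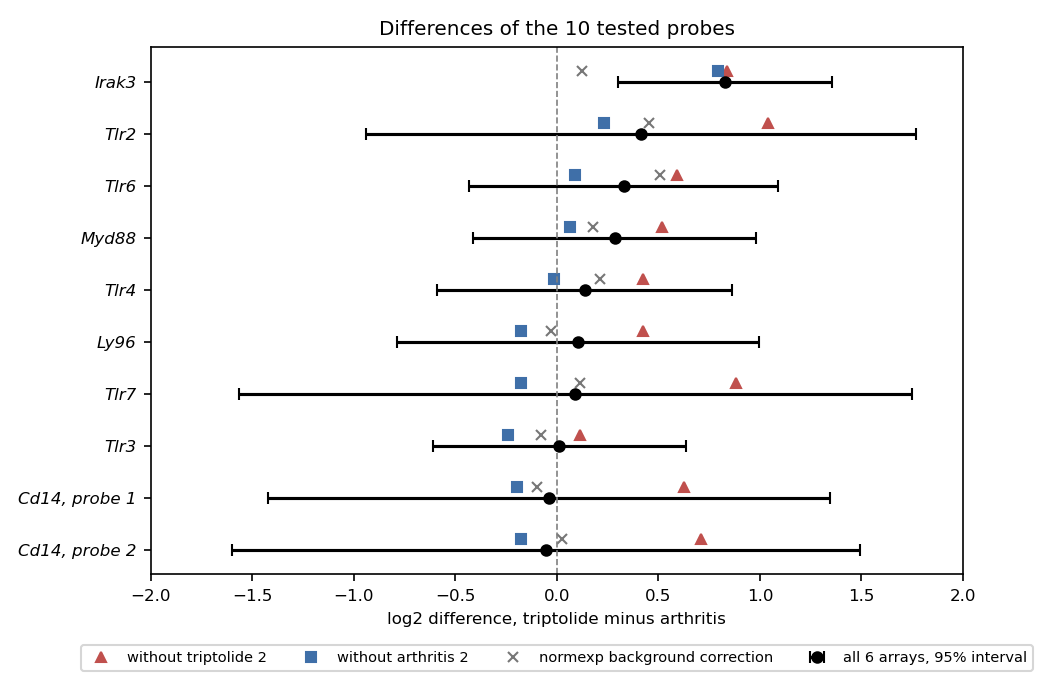
Log2 difference, triptolide minus arthritis (x axis), of the 10 tested probes (y axis), with all 6 arrays (black, bars are 95% intervals), without triptolide 2 (red triangles), without arthritis 2 (blue squares) and after normexp background correction (grey crosses). The interval of Irak3, 0.30 to 1.35, lies above 0, but 2 of its 3 arthritis readings are not well above background and its normexp value is 0.12, and leaving out triptolide 2 moves Tlr2, Tlr7 and both Cd14 probes to between 0.62 and 1.04.

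The genes were high and low on the same arrays within each group. After centring each of the 8 genes measured on all 6 arrays on its own mean, their mean was 0.55, -0.74 and 0.44 in triptolide 1 to 3, against -0.017, -0.52 and 0.29 in arthritis 1 to 3. All 8 genes were below their own mean in both triptolide 2 and arthritis 2. Triptolide 2 was the lowest array for Tlr2, Tlr4, Tlr7 and Cd14, and arthritis 2 for Tlr3, Tlr6, Myd88 and Ly96. In triptolide 2 the centred levels were -1.54 for Tlr7, -1.35 for Cd14 and -1.05 for Tlr2, and the highest there were -0.20 for Tlr3, -0.32 for Myd88 and -0.36 for Tlr6.

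The root mean square distance between 2 genes' centred levels over the 6 arrays describes how alike they ran. Over the 28 pairs it was between 0.052 and 0.69 with a median of 0.38. Tlr6 and Myd88 were the closest pair at 0.052, and Ly96 was 0.13 from Tlr6 and 0.15 from Myd88. Tlr7 and Cd14 were 0.18 apart, and Tlr3 and Tlr7, the 2 endosomal receptors, were the farthest pair at 0.69. All points share the 6 arrays and their scaling, so these distances are a description with no test.

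Markers of several cell types moved on the same arrays. The 11 tested of 12 macrophage markers stood at a mean centred log2 level of 0.15, -0.39 and 0.43 in triptolide 1 to 3, against -0.016, -0.43 and 0.26 in arthritis 1 to 3. Their summed level, each intensity divided by its array's 75th percentile, was 458.0 to 799.4 with triptolide and 439.9 to 721.8 in arthritis, and Marco was not well above background on any array. The 7 tested of 12 neutrophil markers stood at 0.61, -0.53 and 0.33 with triptolide, against -0.30, -0.38 and 0.27 in arthritis, with summed levels of 2.91 to 4.11 and 2.27 to 3.36. Mpo was well above background on 3 triptolide arrays and 1 arthritis array, and so met the filter through the triptolide group alone. Csf3r was so on 2 triptolide arrays and 1 arthritis array, and Retnlg on 2 and 3. The neutrophil levels therefore rest partly on readings at background. Elane, Ngp, Cxcr2 and Mmp8 were not well above background on any array, and Ltf had no probe by that name. In tissue RNA, fewer cells of a type and less RNA per cell cannot be told apart, and the part of these cell types in the receptor levels was not tested.

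Some markers of other tissues were high in triptolide 2, and others in arthritis 2. The 5 Schwann cell markers stood at 2.96 and the 5 smooth muscle markers at 2.43 in triptolide 2, where the next highest array of either was at 0.38. The 9 tested of 10 skeletal muscle markers stood at 8.47 in arthritis 2, at 2.08 in triptolide 3 and at -3.05 in triptolide 2. Acta1, Ckm, Myh1 and Myh2 were well above background on only 1 arthritis array, so the size of 8.47 rests partly on readings at background. The 6 endothelial markers were at 0.90 in triptolide 2. The 6 tested of 7 T cell markers were lowest in triptolide 2 and arthritis 2, at -0.93 and -0.86, and so were the 10 synovial fibroblast markers in triptolide 2, at -0.79, with -0.40 in arthritis 2. Cd5 of the T cell list and Cnn1 of the smooth muscle list were not well above background on every array. Among the 4 tested of 5 adipocyte markers the mean was between -0.50 and 0.69, and 2 of 6 dendritic cell markers and 0 of 5 B cell markers could be tested. No marker of any list passed the adjusted threshold or an unadjusted p under 0.05.

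**Figure D3:**
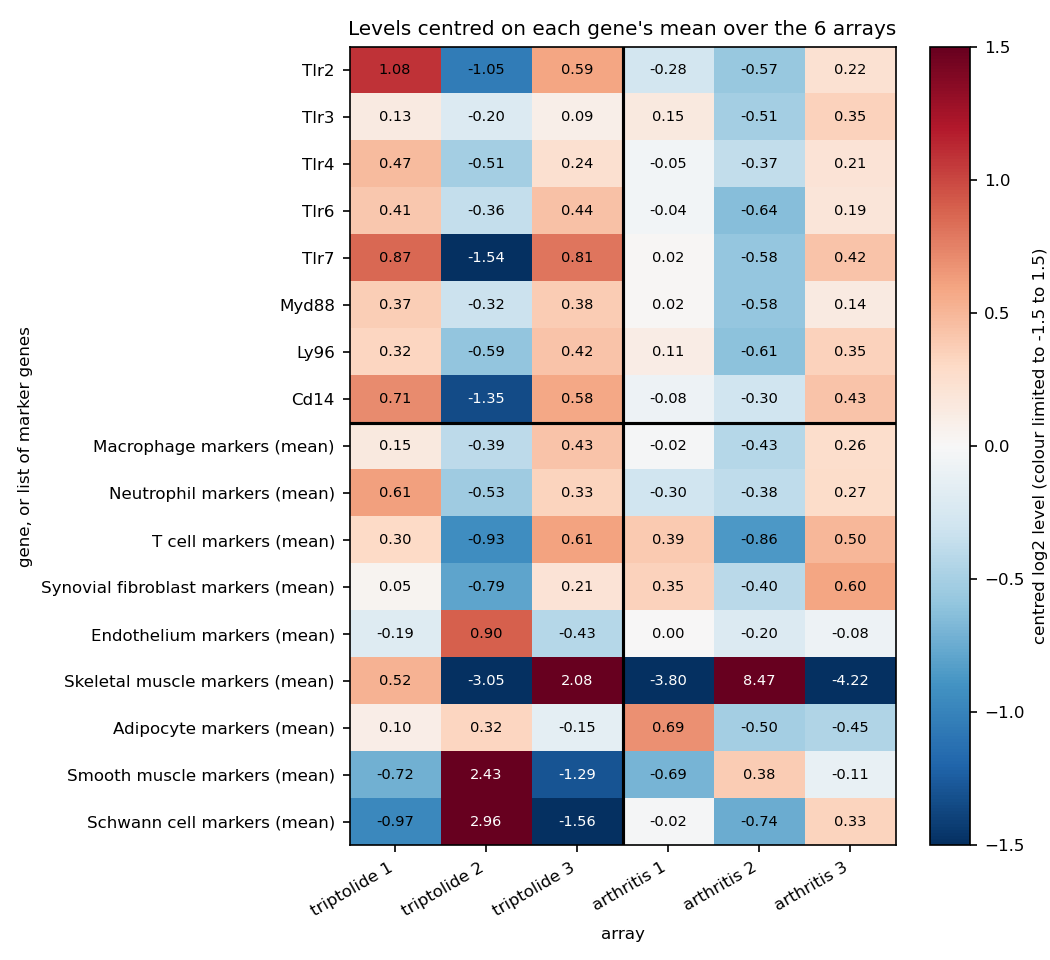
Log2 levels centred on each gene's mean over the 6 arrays (colour, limited to -1.5 to 1.5, values printed in the cells) for the 8 genes measured on all arrays and, under the black line, for the mean of 9 lists of marker genes; triptolide arrays are left of the vertical line and arthritis arrays right of it. The receptor and signalling genes are low in triptolide 2 and arthritis 2 together with macrophage, neutrophil, T cell and fibroblast markers, while Schwann cell (2.96) and smooth muscle markers (2.43) are high in triptolide 2 and skeletal muscle markers (8.47) in arthritis 2.

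Upstream sequence is shown for the pair that ran closest, Tlr6 with Myd88, and for Tlr7 with Cd14, the 2 with the lowest centred levels in triptolide 2. Of the 10 genes, 8 matched an entry in RefSeq's promoter table for build GRCr8. The stretches are the 250 bases before each gene's start, 5′ to 3′ in the direction of the gene. Capitals mark matches to 3 short motifs, written 5′ to 3′ and searched on both strands: GAGGAA (like the core of a PU.1 or other ETS site), CACGTG (an E-box) and TGANTCA (like an AP-1 site). No match overlapped another motif's. The 3 motifs were kept from 10 patterns looked at. They and the length of the window were chosen after matches in these promoters had been seen. The counts are therefore a description only, and a count above the share over all promoters is no sign of enrichment.
Tlr6 (chr14:43715559-43715808, plus strand): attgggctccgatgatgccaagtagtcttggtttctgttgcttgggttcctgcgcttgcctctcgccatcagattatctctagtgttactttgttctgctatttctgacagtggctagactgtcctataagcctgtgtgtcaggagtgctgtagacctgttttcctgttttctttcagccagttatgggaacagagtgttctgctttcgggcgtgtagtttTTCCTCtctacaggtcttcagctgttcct
Myd88 (chr8:127956231-127956480, minus strand): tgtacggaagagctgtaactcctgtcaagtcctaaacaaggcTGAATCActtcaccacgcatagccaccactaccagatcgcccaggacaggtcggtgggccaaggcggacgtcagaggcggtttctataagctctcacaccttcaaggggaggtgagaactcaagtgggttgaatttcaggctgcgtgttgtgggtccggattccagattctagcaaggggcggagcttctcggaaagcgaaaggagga
Tlr7 (chrX:30644176-30644425, plus strand): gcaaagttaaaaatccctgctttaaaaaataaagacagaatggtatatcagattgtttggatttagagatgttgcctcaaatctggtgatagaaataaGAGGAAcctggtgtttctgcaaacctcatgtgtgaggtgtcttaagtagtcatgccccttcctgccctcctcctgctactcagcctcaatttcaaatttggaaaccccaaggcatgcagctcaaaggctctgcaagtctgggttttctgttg
Cd14 (chr18:28611159-28611408, minus strand): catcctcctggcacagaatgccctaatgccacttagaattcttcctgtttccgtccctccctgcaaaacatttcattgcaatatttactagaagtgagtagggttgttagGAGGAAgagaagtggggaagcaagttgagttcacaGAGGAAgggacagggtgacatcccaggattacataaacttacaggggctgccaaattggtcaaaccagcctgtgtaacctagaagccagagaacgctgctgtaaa
GAGGAA or its reverse complement was in 5 of the 8 promoters, those of Tlr3, Tlr4, Tlr6, Tlr7 and Cd14, and in 23.3% of all 33469 promoters of the table over the same window. TGANTCA was in 1, that of Myd88, beside 6.34%, and CACGTG in 0 of the 8, beside 5.59%. The windows of Irak3 and Tlr2 had no match to any of the 3 motifs. The closest pair in levels, Tlr6 and Myd88, had no motif in common in these windows. A match is a run of letters and says nothing of whether a factor binds there.

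The rest of the pathway was described from 73 listed genes in 7 roles, of which 66 were on the array by name and 62 were bright enough to test. None passed the adjusted threshold. Of the 62, 45 had a positive and 17 a negative difference, beside 53.9% and 46.1% of all tested probes. The genes share the same arrays, so their signs are not independent, and the counts by direction were made on all 6 arrays only. The median difference was 0.17, beside 0.023 over all tested probes. At an unadjusted p under 0.05 there were 2, 1 in each direction, beside 2.01% of all tested probes higher and 1.23% lower. Groups did not overlap for 2 genes higher with triptolide and 1 lower, beside 4.77% and 3.87% of all tested probes.

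The inhibitors held both of the genes under an unadjusted p of 0.05. Nfkbia, which encodes the NF-kB inhibitor IkB-alpha and is itself an NF-kB target, stood at 3.76, 3.43 and 3.52 with triptolide, against 2.84, 2.66 and 3.30 in arthritis. Its groups did not overlap, and the log2 difference was 0.63 (SE 0.21, limma adjusted p = 0.994). Il1rl1, whose product ST2 binds interleukin-33 and dampens Toll-like receptor signalling, stood at -0.41, 0.15 and -0.15 with triptolide, against 1.06, 0.42 and 0.61 in arthritis. All triptolide arrays lay below all arthritis arrays, with a log2 difference of -0.83 (SE 0.24, limma adjusted p = 0.994). A dim second probe, designed on another transcript of Il1rl1, differed by 0.37 (SE 0.31), so the 2 probes of this gene disagree in sign. Of the 9 tested inhibitors, 7 had a positive difference, and Irak3 is a further one.

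Among the 5 other receptors tested, differences were between -0.10 and 0.68 with a median of 0.15, Tlr1 being the highest and Tlr9, which senses CpG DNA, the lowest at -0.10 (SE 0.14). Tlr9 stood at -2.40 ± 0.12 with triptolide and -2.29 ± 0.04 in arthritis (SD, n = 3 each), and unlike Tlr7 it varied little between the arrays. Of the 6 accessory genes, 5 had a positive difference with a median of 0.23. Lbp, the serum protein that delivers lipopolysaccharide to Cd14, differed by 0.43 (SE 0.45), and by 0.066 without arthritis 2, 0.16 without triptolide 1, 0.82 without arthritis 3, 0.73 without triptolide 2, 0.87 with normexp and 0.96 within slide 1. Hsp90b1, a chaperone that folds most Toll-like receptors, differed by 0.20 (SE 0.18). The 14 adaptors and kinases were split into 9 positive and 5 negative with a median of 0.10. In this group Pik3ap1, an adaptor that links the receptors to phosphoinositide 3-kinase, differed by 0.51 (SE 0.24) and Peli1, a ubiquitin ligase of the IRAK complex, by 0.30 (SE 0.21), with -0.16 (SE 0.16) on a second probe. Tab2, which helps activate the kinase encoded by Map3k7, had groups that did not overlap, with a difference of 0.17 (SE 0.15), and was named after its values were seen.

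All 6 transcription factor genes tested had a positive difference, between 0.067 and 0.48 with a median of 0.24, where 53.9% of all tested probes were positive. These genes share the same 6 arrays, so their signs are not independent. Nfkb1 and Irf7, named after their values were seen, owe their positive sign to triptolide 1, at 3.26 and 5.13. In triptolide 2 and 3, Nfkb1 stood at 2.41 and 3.00, against 2.55 to 2.94 in arthritis. Irf7 stood there at 2.65 and 3.59, against 2.96 to 3.89 in arthritis. Without triptolide 1, Rela was still at 0.27 and Irf5 at 0.20. Rela, the NF-kB subunit p65, differed by 0.31 (SE 0.18) and Irf5, which acts behind Myd88, by 0.38 (SE 0.33). Of the 13 induced targets 11 had a positive difference, with a median of 0.27. The 2 negative ones, named here for their direction, were Ccl5 at -0.84 (SE 0.45) and Cxcl2 at -0.12 (SE 0.48). Both were well above background on all 6 arrays. Ccl5 stood at 2.08, 0.96 and 2.12 with triptolide, against 3.05, 1.80 and 2.83 in arthritis. Tnf, Il6, Ptgs2 and Nos2 are among the 11, and none of them was well above background on all 6 arrays. Icam1, an adhesion molecule for leukocytes, stood at 4.47, 3.43 and 4.07 with triptolide, against 3.35, 2.88 and 3.70 in arthritis, and differed by 0.68 (SE 0.33). Ptgs2, the inducible cyclooxygenase, was dim, well above background on 2 triptolide arrays and 1 arthritis array, with a fitted difference of 1.26 (SE 0.63). That value was 0.13 with normexp, 0.28 with normexp and quantile normalization, 0.70 without triptolide 1 and 2.40 within slide 1.

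Nos2, the inducible nitric oxide synthase, was picked out after its values were seen. Its probe was well above background on 2 of 3 triptolide arrays and 1 of 3 arthritis arrays, so part of its readings are at background and its difference has no exact size. It read 1.56 in triptolide 1, while the other arrays read -6.56 and -3.09 with triptolide and -6.50, -4.63 and -4.14 in arthritis. Of 9 endogenous ligands, molecules of the tissue reported to act on Tlr2 or Tlr4, 3 had a positive and 6 a negative difference, with a median of -0.15. Tnc, the matrix protein tenascin-C, had a difference of -0.50 (SE 0.33) on the brighter probe and -0.12 (SE 0.34) on a second probe, well above background on all 6 arrays. The brighter probe stood at -0.029 with slide as a block, -0.27 without arthritis 1, -0.30 without triptolide 3 and -1.04 with array weights. S100a8, a subunit of calprotectin, differed by 0.44 (SE 0.33).

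**Figure D4:**
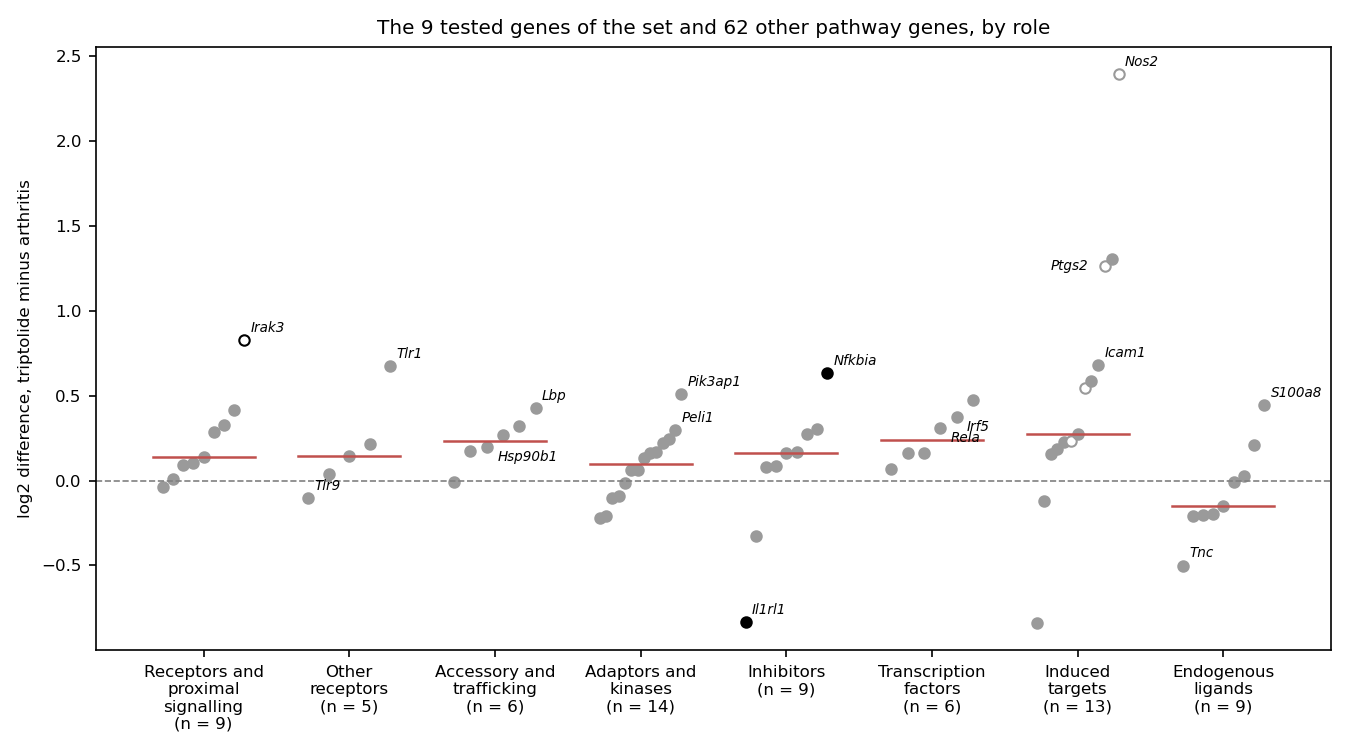
Log2 difference, triptolide minus arthritis (y axis), of the 9 tested genes of the set (leftmost column) and of 62 other genes of the pathway by role (x axis, number of genes in brackets); each point is 1 gene on its brightest probe, black at an unadjusted p under 0.05 and grey otherwise, open where the probe was not well above background on all 6 arrays, and the red line is the median. Irak3 (0.83, open), Nfkbia (0.63) and Il1rl1 (-0.83) are the black points, and the open points, Ptgs2 and Nos2 among them, rest partly on readings at background.

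The genes whose levels ran most like the mean of the 8 genes were Cst7, Stx3, Ptpn18, Ap3s1 and Tor2a, at root mean square distances of 0.050 to 0.061 over the 6 arrays, where the median over 14171 ranked probes was 0.49. Cst7, which encodes cystatin F, a cysteine protease inhibitor of immune cells, had centred levels of 0.52, -0.64 and 0.46 in triptolide 1 to 3, against -0.074, -0.51 and 0.25 in arthritis 1 to 3. Closest to Tlr2 were Sgms2, Ceacam4 and Tifa at 0.084, 0.093 and 0.098. Tifa encodes an adaptor that binds Traf6, and its centred levels were 1.17, -1.02 and 0.54 with triptolide, against -0.13, -0.64 and 0.082 in arthritis. Closest to Cd14 were Piwil2, Ncf4 and RT1-CE5 at 0.12, 0.15 and 0.16. Ncf4 encodes a subunit of the phagocyte NADPH oxidase, and RT1-CE5 belongs to the MHC class I family, whose members are alike enough in sequence that its signal is uncertain. A function is given here for only some of these nearest genes, so it does not describe them as a set. Whether they share a function was not tested.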

How the data were processed

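RNA from 6 samples of synovial tissue was labelled with Cy3 and hybridised to 1-colour Agilent rat arrays, per the labels' protocols. The authors' deposited scanner files give linear intensity per spot after subtraction of background within the array, per the file headers (Feature Extraction 10.7.3.1, build rn4), whereas the submitters' processing notes name version 9.1. The authors' deposited table of log2 values has 167 rows, of which 160 match a probe. It holds 0 probes of the 10 genes and 1 of the pathway genes, and served as an alternative only.

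Control and outlier-flagged spots were left out, the log2 75th percentile of each array was subtracted from log2 of the intensity, and spots of a probe were averaged. Probes well above background (for a probe with several spots, in as many of them as not, or more) on at least 3 of 6 arrays were tested, 25777 of 41012. The test of triptolide minus arthritis was limma's (version 3.58.1, R 4.3.3, lmFit with eBayes, two-sided, Benjamini-Hochberg over all tested probes, threshold 0.05), in a script tested on simulated data. Intervals are 95% intervals of that fit. Where a gene had several probes, the brightest stood for it in counts of genes. Symbols came from a RefSeq gene table, matched by accession for 18028 probes, by symbol for 3169 and by synonym for 402, and 19413 probes kept the file's name. All values of the 10 genes were measured, with none imputed. The number of arrays, 3 per group, limits the precision.

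The 10 genes, the pathway and marker lists and the rules were chosen with earlier results of these data known. Named with values were every probe of the 10 genes, pathway genes with an unadjusted p under 0.05 and the 2 with the smallest in each role, and the nearest genes by profile. Tab2, Nos2, Nfkb1, Irf7, Ccl5 and Cxcl2 were named outside this rule, after their values were seen. Over the tested probes, same-numbered samples deviated from their group means with correlations of -0.16, -0.13 and 0.00083. Differently numbered samples had correlations of -0.10 to 0.16, so the same-numbered ones were no more alike. With so few arrays per group, these correlations cannot settle whether the replicate numbers pair the samples. A replicate block made the SE of every tested probe of the 10 genes smaller, so pairing was not excluded. Alternatives were normexp (offset 50), quantile and median scaling, other filters, slide, a replicate block, array weights and leaving out arrays. Pathway genes not used here because no probe carried their name were Tlr8, Tlr11, Tlr12, Ticam1, Tab3, Tnfaip3 and Irf8. Tlr10, Tirap, Il12b and Ifnb1 were too dim to test. The place of each probe within exons and UTRs was not analysed here.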

Additional observations from a re-analysis of the deposited data

How the results depend on the processing

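Over the 17 alternatives run for each tested probe (16 for Irak3, which the filter at all 6 arrays removes), no probe of the 10 genes passed the adjusted threshold, and the adjusted p of Irak3 was 0.161 to 1.00. Irak3, Tlr6 and Myd88 kept a positive difference under every alternative, Irak3 at 0.66 to 1.03 with 1 array left out and 0.12 to 0.91 otherwise. Irak2 had a value only without the filter, 0.58 (SE 0.51). With 1 array left out, Tlr2 was -0.023 to 1.04, Tlr3 -0.24 to 0.19, Tlr4 -0.065 to 0.43, Tlr7 -0.32 to 0.88, Ly96 -0.18 to 0.43, and the Cd14 probes -0.40 to 0.62 and -0.47 to 0.71. The median of the 9 genes was then -0.030 (without triptolide 1) to 0.59 (without triptolide 2), and -0.012 without arthritis 2.

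Under array weights, under triptolide 1 and 3 set against arthritis 1 and 3, and with slide as a block (equal to within slide 1), Cd14 probe 1 stood at 0.41, 0.47 and 0.69 and probe 2 at 0.49, 0.59 and 0.79. The first 2 settings gave Tlr3 -0.12 and -0.14. The slide settings gave a median of 0.57 and Tlr9 at 0.0023. Normexp gave Cd14 probe 2 0.026, Ly96 -0.031, Tlr3 -0.079 and Tlr9 0.020, and with quantile normalization Ly96 -0.032, Tlr3 -0.081 and Tlr9 0.083. Scaling to the array median gave Tlr3 -0.022. The median of all tested probes was -0.012 with the array median and without the arrays numbered 2, -0.036 with normexp and -0.022 to 0.060 with 1 array left out.

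At an unadjusted p under 0.05 there were 3 of the 10 genes under array weights (Tlr2, Tlr6 and Irak3), in the comparison without the arrays numbered 2 and without triptolide 2 (both times Tlr2, Tlr7 and Irak3, and also the dimmer of the 2 Cd14 probes, which does not stand for the gene in this count), and 0 with the filter at all 6 arrays, normexp or slide as a block. Within slide 1 the 1 gene was Tlr2. With 1 array left out the number was 1 to 3. The pathway genes under that p, 2 in the report, numbered 13 with array weights, 11 with the arrays numbered 2 left out, 5 with normexp, 4 with normexp and quantile normalization, 11 with slide as a block, 10 within slide 1 and 1 to 12 with 1 array left out, the highest without triptolide 2. Over all probes the number was 4345 with array weights, 2880 without the arrays numbered 2, 1758 with no filter, 1297 within slide 1 and 619 to 1657 with 1 array left out, beside 835. Past the adjusted threshold there was 1 probe with array weights and 24 without the arrays numbered 2, and 0 in the others. With the replicate block the differences cannot move, since each block holds 1 array of each group. The SE of every tested probe of the 10 genes was smaller with it. That of Ly96 was 0.13 in place of 0.37, that of Tlr6 0.13 in place of 0.31 and that of Myd88 0.13 in place of 0.29. The pathway count with this block was 5 and the count over all probes 1066. Over all alternatives Lbp was at 0.066 to 0.96 (0.43 in the authors' deposited table), Ptgs2 0.13 to 2.40, Tnc -1.04 to -0.029, Hsp90b1 0.0051 to 0.30, Peli1 0.056 to 0.66, Irf5 0.14 to 0.73, S100a8 0.18 to 0.96, Rela 0.17 to 0.50, Pik3ap1 0.33 to 0.82, Tlr1 0.45 to 1.13, Icam1 0.44 to 1.16, Nfkbia 0.50 to 0.83 and Il1rl1 -1.12 to -0.65. The cause of these changes was not tested.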
